A study of Mus musculus with 7 samples.

Results

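Many mouse genes have a second transcription unit on the opposite DNA strand, and such a unit carries the symbol of its neighbour followed by os, for opposite strand. The transcripts described here are the genes of the deposited table whose symbol ends in os, or in os and a number, and whose symbol before os is itself listed as a gene. Of 48526 listed genes, 321 have a symbol of that form, 25 of them lack a listed partner, and 296 form a pair. These 296 entries stand for 293 symbols, since 3 symbols occur under 2 identifiers, and they lie beside 251 partner genes. The partner was alone with its os transcript in 218 cases, and the gene with the most, Sox5, had 5.

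Opposite-strand transcripts arise in different ways. Many start beside a gene's own start site and run away from it, because open promoters rich in CpG dinucleotides often fire in both directions. Others start inside or beyond the partner and run back across its exons as antisense RNA, where some are known to act on the partner's chromatin or splicing and many have no known function. A few are protein-coding genes whose name records only where they lie.

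RNA was sequenced from heart regions dissected out of mouse embryos at embryonic day 8.5, when the heart tube loops, with each embryo giving 1 library. The 4 control embryos were Hoxb1 +/+ ; Nodal flox/+, and the 3 mutant embryos were Hoxb1 Cre/+ ; Nodal flox/nul, all on a mixed genetic background. The conditional Nodal allele was thus present in both groups, while Cre, an altered Hoxb1 allele and a null Nodal allele were present in the mutants alone, and these cannot be told apart. Cre is driven by the homeobox gene Hoxb1, which is active in posterior parts of the embryo including some heart precursors, so that Nodal is targeted in part of the dissected cells. The labels do not say whether embryos shared a litter, and p-values measure the spread between these embryos. Female embryos (controls 1 and 3, mutants 2 and 3) are marked substage E8.5e and males (controls 2 and 4, mutant 1) E8.5f, which leaves sex and stage inseparable. Values are printed in the order controls 1 to 4, then mutants 1 to 3.

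The libraries held 7155994 to 15122057 reads assigned to genes. All 10 cardiomyocyte markers examined were above 0 in every embryo. Their summed normalised count ran from 46676 in control 3 to 137195 in control 4, and from 50583 to 104494 in mutants. Control 3 also had the highest neural tube sum, 6006 against 2002 to 2370 in the other controls and 2850 to 5387 in mutants, and its paraxial mesoderm sum was 4297 against 1007 to 1870 and 2224 to 4749. Of 9 marker lists the groups were apart for 1, surface ectoderm, with sums of 175 to 376 in controls and 395 to 476 in mutants and Krt14 at 0 in some embryos; its part in the differences below was not tested. In the neural and paraxial lists the genes Dbx1, Neurog2, Olig2 and Mesp2 were at 0 in some embryos. In bulk tissue, fewer cells of a type and less RNA per cell cannot be told apart.

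Every one of the 296 os transcripts had an entry in GENCODE M21 (GRCm38), and each lay on the same chromosome as its partner and on the opposite strand. Exons of both genes overlapped in 162 pairs. The gene bodies overlapped without shared exon bases in 81 pairs. In 41 pairs the genes stood head to head, running apart from their starts, and in 12 tail to tail. Of the head-to-head pairs, 31 had annotated starts within 1000 bp. GENCODE types 254 of the 296 as antisense, 13 as processed transcript, 11 as lincRNA and 11 as protein coding.

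The space between the starts of a head-to-head pair is shown for 4 pairs that the results below return to, so that the shared promoter can be read. Each window is RefSeq's promoter sequence of 1 of the genes (GRCm38.p6), 250 bases before to 50 after its RefSeq start, read 5′ to 3′ on that gene's strand. Capitals mark the bases between the GENCODE start sites of the gene and its opposite-strand neighbour, as far as they lie in the window. The windows are that of Brip1 (chr11:86201144-86201443, minus strand), whose start is 177 bp from that of Brip1os; that of Foxd2 (chr4:114908849-114909148, minus strand), 384 bp from Foxd2os, so that the Foxd2os start lies beyond the window; that of Lhx1os (chr11:84525410-84525709, plus strand), 125 bp from Lhx1; and that of Map2k3os (chr11:60931818-60932117, minus strand), 166 bp from Map2k3.
Brip1: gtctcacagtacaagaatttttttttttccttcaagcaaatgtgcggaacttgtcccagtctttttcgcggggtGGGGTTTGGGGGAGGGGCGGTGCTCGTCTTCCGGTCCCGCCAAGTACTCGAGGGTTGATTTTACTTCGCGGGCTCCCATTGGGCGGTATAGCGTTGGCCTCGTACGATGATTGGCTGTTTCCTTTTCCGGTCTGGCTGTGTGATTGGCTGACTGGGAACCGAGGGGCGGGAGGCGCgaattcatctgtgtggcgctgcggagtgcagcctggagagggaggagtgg
Foxd2: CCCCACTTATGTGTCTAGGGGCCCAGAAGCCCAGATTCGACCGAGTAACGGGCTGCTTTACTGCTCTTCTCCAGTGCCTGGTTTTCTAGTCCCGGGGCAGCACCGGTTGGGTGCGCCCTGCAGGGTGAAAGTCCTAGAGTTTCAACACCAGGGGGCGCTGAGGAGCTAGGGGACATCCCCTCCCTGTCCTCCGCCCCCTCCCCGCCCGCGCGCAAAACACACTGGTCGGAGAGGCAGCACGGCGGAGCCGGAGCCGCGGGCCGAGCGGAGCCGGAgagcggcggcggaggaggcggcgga
Lhx1os: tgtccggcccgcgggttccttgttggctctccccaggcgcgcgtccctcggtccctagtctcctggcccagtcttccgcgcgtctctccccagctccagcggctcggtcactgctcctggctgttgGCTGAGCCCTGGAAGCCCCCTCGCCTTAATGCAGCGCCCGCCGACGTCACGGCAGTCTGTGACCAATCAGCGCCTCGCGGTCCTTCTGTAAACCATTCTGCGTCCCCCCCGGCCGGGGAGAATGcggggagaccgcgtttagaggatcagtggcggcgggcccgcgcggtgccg
Map2k3os: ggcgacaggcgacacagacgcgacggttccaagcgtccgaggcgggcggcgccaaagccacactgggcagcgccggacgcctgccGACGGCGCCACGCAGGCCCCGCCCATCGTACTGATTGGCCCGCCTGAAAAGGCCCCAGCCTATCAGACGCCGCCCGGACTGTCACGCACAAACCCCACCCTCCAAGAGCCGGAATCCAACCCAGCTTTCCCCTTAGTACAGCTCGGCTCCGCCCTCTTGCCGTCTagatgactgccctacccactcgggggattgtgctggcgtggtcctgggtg

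Sequence elements of promoters were searched by letters on both strands of such windows: GGGCGG (the GC box, bound by Sp factors), CCAAT (the CCAAT box) and TATAAA (the TATA box). A RefSeq window matched 28 of the 47 os transcripts that passed the expression filter described next, 120 of the 249 that did not, and 30 partners of the former. GGGCGG was in 57.1% of the windows of passing os transcripts, in 29.2% of those below the filter, in 66.7% of the partners' and in 35.7% of all 32851 windows. The median G+C content was 64.5% in the first set and 52.3% in the second, against 52.7% over all windows. The ratio of observed to expected CpG had a median of 0.73, 0.33 and 0.38 in the same order. TATAAA was in 10.7% of the passing os windows, 7.50% of those below the filter and 13.6% of all windows, and CCAAT in 35.7%, 35.0% and 37.4%. Windows of both genes of a head-to-head pair can overlap and are counted for each, and a match says only that the letters are present.

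Most os transcripts were scarce in the heart region. No read was assigned in any embryo to 59 of the 296 (19.9%), against 40.3% of all genes. A further 190 had reads but did not reach a normalised count of 10 in at least 3 libraries, the level required for testing. The remaining 47, or 15.9%, passed, against 32.1% of all genes and 10.02% of the 2165 other genes that GENCODE types as antisense. Among the 238 os transcripts whose partner passed, 45 passed (18.9%), and among the 58 whose partner did not, 2 passed (3.45%). Those 2 were Ccpg1os and Rab26os. Of the partners, 197 of 251 (78.5%) passed.

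The share that passed was counted by arrangement and by gene type. Transcripts in tail-to-tail pairs passed in 5 of 12 cases and head-to-head ones in 10 of 41, and all 10 had starts 39 to 468 bp apart. Of those with overlapping exons, 30 of 162 passed, and of those that overlapped the partner without shared exon bases, 2 of 81, Lrp8os2 and Rab26os. Entries typed as antisense passed in 27 of 254 cases, lincRNAs in 6 of 11, processed transcripts in 7 of 13 and protein-coding genes in 5 of 11. These shares are descriptions without a test.

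**Figure D1:**
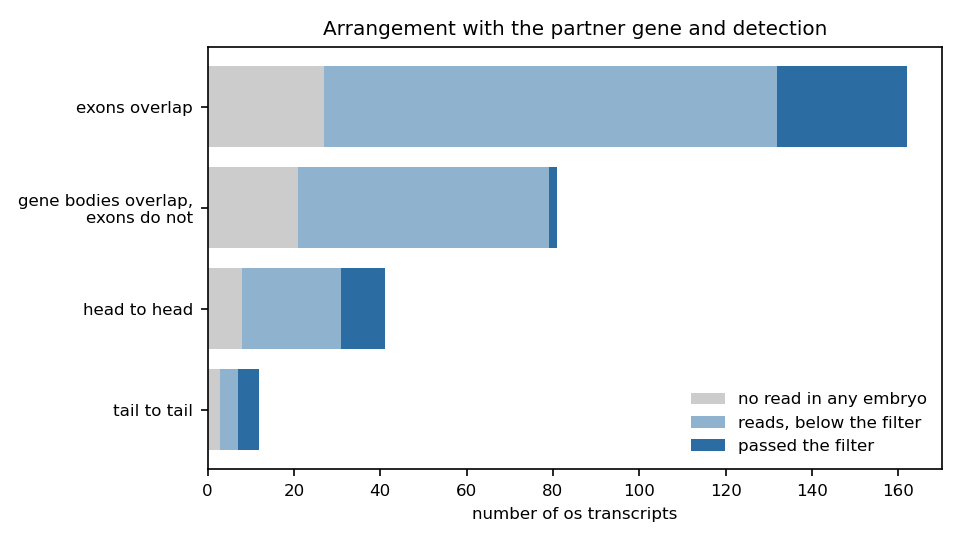
Number of os transcripts by arrangement with the partner gene, split by detection in the 7 embryos. Grey marks no read in any embryo, light blue reads below the filter and dark blue transcripts that passed; 30 of 162 with overlapping exons passed and 2 of 81 that overlap the partner outside its exons.

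How overlapping genes were counted bears on all these levels. The library kit keeps strand, but the sources used here give no strand setting for the counting, so reads of an os transcript and of its partner may not be separated by strand. A check on the whole table took 186 genes whose exons lie wholly within exons of an opposite-strand gene with a mean normalised count of at least 100. Only 5 of them (2.70%) had any read, and the highest total was 195 reads. For comparison, 40.3% of all genes had no read in any embryo. Of the 4 os transcripts with at least 90% of their exon bases inside another gene's exons, 3 had no read and none passed. Levels of a pair are therefore compared per kilobase of exon that no other annotated gene covers on either strand. For the 32 passing os transcripts whose body overlaps the partner, reads from the partner's introns may be included, and this was not tested.

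Igf2os (chr7:142659693-142670356, plus strand, antisense) had the highest level of the set. It overlaps Igf2, the imprinted growth factor of the embryo, and its normalised counts were 1171, 1356, 618 and 1078 across controls, with 899, 1085 and 825 across mutants. Control 3 was lowest, and all mutants lay within the range of the controls. Igf2 itself stood at 47825, 53605, 31508 and 61014 across controls, with 49489, 39128 and 38556 across mutants, also lowest in control 3. Per kilobase of unshared exon the os transcript was at 1.08% of Igf2, with 245 against 22609.6 normalised counts. The log2 difference, mutant minus control, was -0.12 (SE 0.25) for Igf2os, -0.16 (SE 0.21) for Igf2 and 0.04 (SE 0.23) for their ratio. With 1 embryo left out the Igf2os difference ran from -0.36 (without control 3) to 0.01 (without control 2).

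Brip1os (chr11:86201370-86304443, plus strand, antisense) starts 177 bp from Brip1, a DNA helicase of the Fanconi anaemia repair pathway, across the window printed above. Its normalised counts were 796, 838, 627 and 676 across controls, with 764, 768 and 717 across mutants. The mutants lay in a narrow band inside the control range. Brip1 had 275, 289, 398 and 254 across controls, with 274, 295 and 320.2 across mutants. Per kilobase of unshared exon the divergent transcript was at 354% of Brip1. Control 3 held the lowest Brip1os and the highest Brip1 value. The log2 difference of Brip1os was 0.04 (SE 0.11), with a 95% interval of -0.21 to 0.29.

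Slc7a6os and Wdr83os, both protein coding, came next. Slc7a6os (chr8:106200717-106210935, minus strand) lies tail to tail with the amino acid transporter gene Slc7a6 and had normalised counts of 507, 519.8, 493 and 501 across controls, with 560.4, 543 and 521 across mutants. Every mutant lay above every control, by a small margin, and the log2 difference was 0.10 (SE 0.06); Slc7a6 itself differed by 0.07 (SE 0.06) and the ratio by 0.03 (SE 0.10). Wdr83os (chr8:85080740-85082339, plus strand), a small membrane protein of the endoplasmic reticulum, shares exon bases with Wdr83, a WD-repeat protein. Its counts were 312, 283, 327 and 304 across controls, with 348, 291 and 337 across mutants, with overlapping groups, and per kilobase it was at 536% of Wdr83.

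Lrp8os2 (chr4:107806033-107823022, minus strand, antisense) lies over introns of Lrp8, a receptor for reelin. It stood at 244, 234, 306 and 218 across controls, with 258, 225 and 251 across mutants, highest in control 3, and at 449.6% of Lrp8 per kilobase. Rab10os (chr12:3235504-3250377, plus strand, antisense), overlapping exons of the vesicle-traffic GTPase gene Rab10, had counts of 199, 201, 181 and 170.1 across controls, with 168, 176 and 188 across mutants. Its groups overlapped and it was at 6.58% of Rab10 per kilobase. Epb41l4aos (chr18:33794892-33795986, plus strand, lincRNA), tail to tail with the band 4.1 family gene Epb41l4a, had counts of 117, 112, 148 and 116 across controls, with 117, 128 and 119 across mutants. Control 3 stood above all other embryos, and Epb41l4a, at 285, 225, 559 and 322 across controls, with 355, 327 and 365 across mutants, was also highest there. These 7 were the only os transcripts with a mean normalised count of at least 100; 19 had means from 20 to under 100 and 21 had means under 20.

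**Figure D2:**
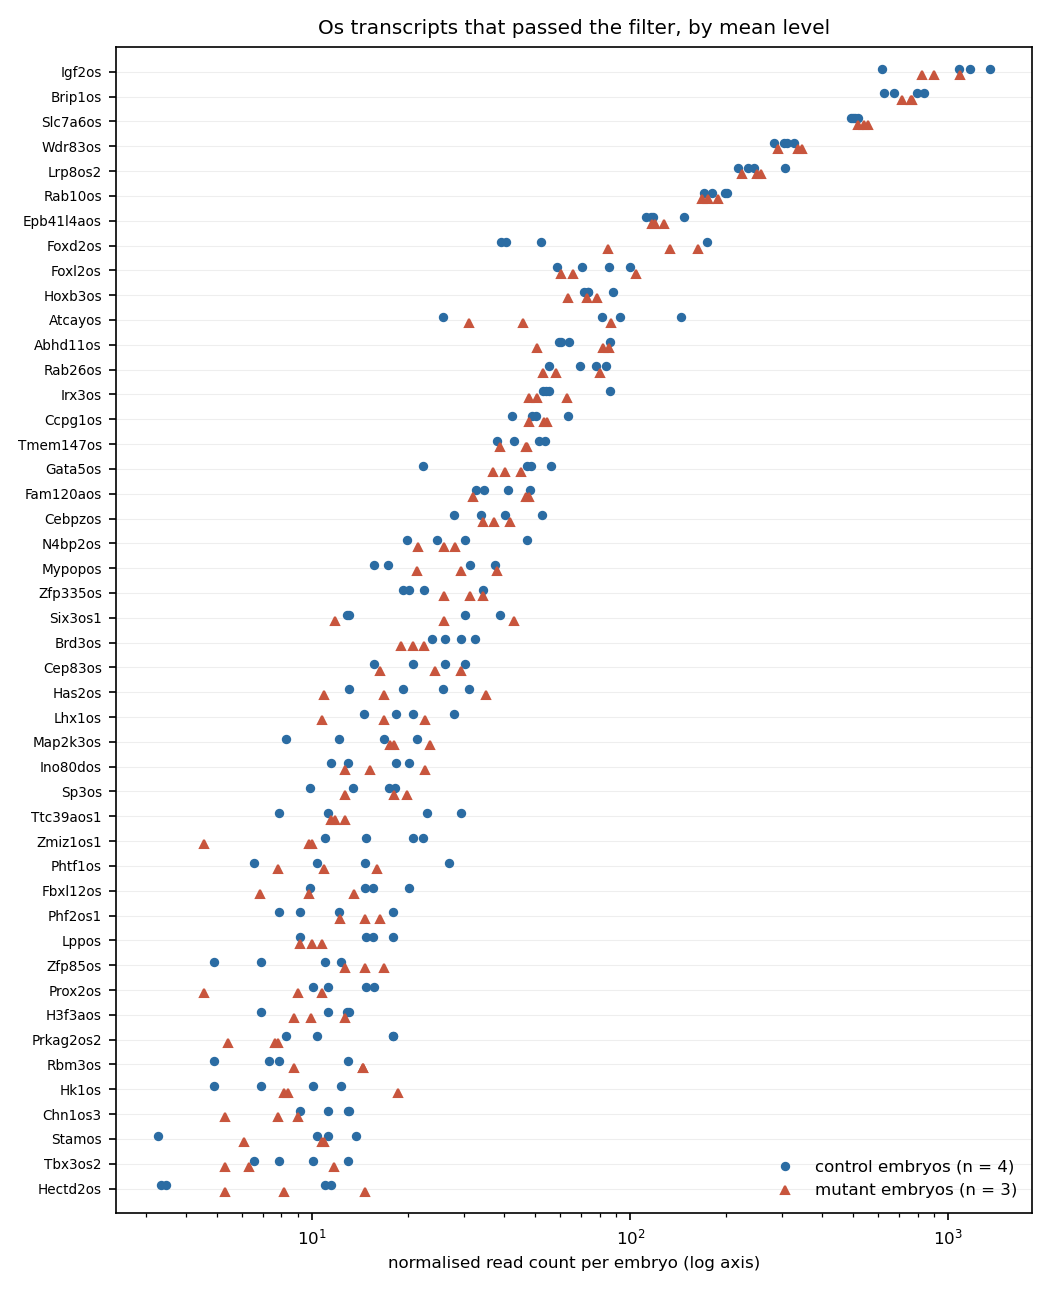
Normalised read count of 46 of the 47 os transcripts that passed the filter, in every embryo (log axis), ordered by mean. Circles are the 4 controls and triangles the 3 mutants; Igf2os is at the top with 618 to 1356, and the groups overlap for most of them, with 6 of the 47 apart.

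Over the 45 pairs in which both genes passed, the os transcript was lower than its partner per kilobase in 34 and higher in 11. Its median level was 12.8% of the partner's, and 20 pairs were below 10%. At the low end stood H3f3aos, at 0.443% of the histone gene H3f3a, and Zmiz1os1, at 0.712% of Zmiz1. At the high end, Epb41l4aos was at 742% of Epb41l4a, Atcayos at 578% of Atcay and Prox2os at 446% of Prox2. Prox2os had a mean normalised count of 10.9, near the filter, and Prox2 one of 16.4. All percentages per kilobase assume that reads in shared exon bases were left uncounted, which was not tested. H3f3aos and Atcayos were named after their values were seen. Ccpg1os, a protein-coding gene whose start is 47 bp from that of Ccpg1, had counts of 42.3, 50.4, 63.7 and 49.1 across controls, with 53.7, 54.8 and 47.9 across mutants. Ccpg1 had 0, 0, 3.36 and 0 across controls, with 0.976, 4.57 and 0.905 across mutants. Only 3313 of the 7497 exon bases of Ccpg1 are free of other annotated genes, and the part of this in its low counts was not tested. Rab26os stood at 77.7, 69.7, 83.9 and 55.6 across controls, with 58.6, 53.3 and 80.5 across mutants, and its partner Rab26, a small GTPase of secretory granules, at 4.32, 7.33, 8.95 and 8.18 across controls, with 12.7, 5.33 and 6.33 across mutants. In neither pair did the partner pass the filter, and both were named for that reason, after their values were seen.

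**Figure D3:**
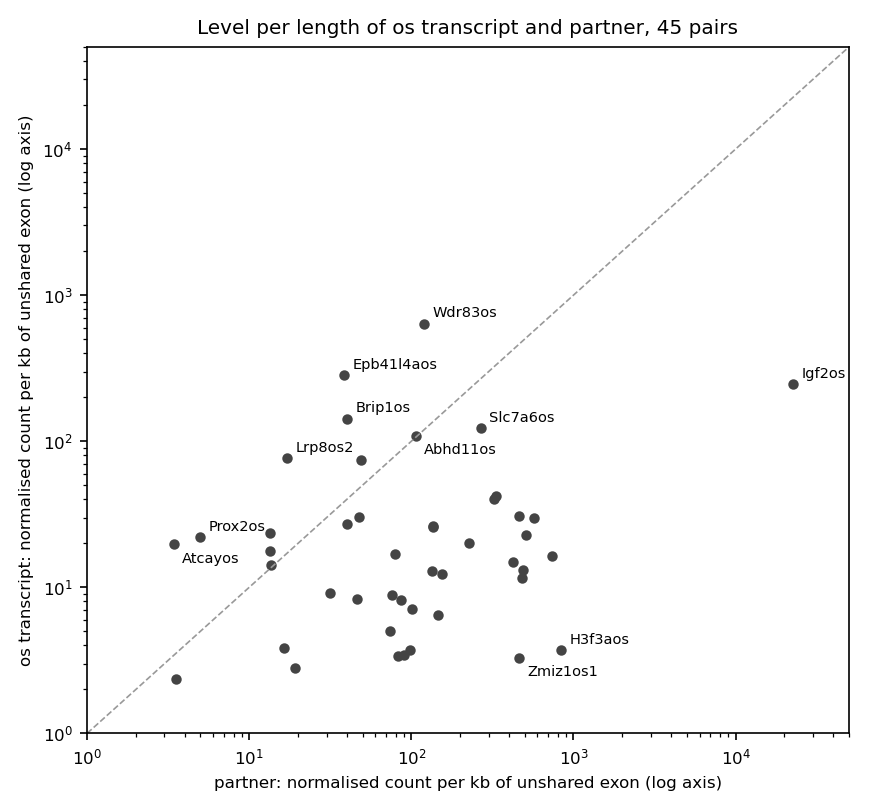
Mean normalised count over the 7 embryos per kilobase of unshared exon, os transcript against partner, for the 45 pairs in which both passed (both axes log). The dashed line marks equal levels; 34 points lie below it and 11 above, and Igf2os stands alone at the right, at 1.08% of Igf2.

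Between genotypes no os transcript was called. With limma across all 15599 tested genes, 0 of 47 os transcripts and 0 of 45 partners had an adjusted p under 0.05, where 0.0128% of all genes did. The smallest adjusted p of an os transcript was 0.967. At an unadjusted p under 0.05 there was 1 os transcript, Zmiz1os1, against 3.83% of all genes. On reads recovered from the values, edgeR, DESeq2 and limma-voom called 0 os transcripts too. At an unadjusted p under 0.05 these methods had 2, 1 and 1 os transcripts, against 3.67%, 2.86% and 3.71% of all genes. Of the 47, 22 were higher and 25 lower in mutants, with a median log2 difference of -0.02 against 0.01 over all genes; 51.7% of all genes were higher. The median size of the difference, without sign, was 0.18 for os transcripts, 0.09 for partners and 0.10 for all genes. The passing os transcripts had a median level of 24.9 normalised counts and their partners 506, and what counting error adds to the larger size was not tested.

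The groups did not overlap for 6 of the 47 os transcripts (12.8%), against 5.78% of all genes. Brd3os, Chn1os3, Prkag2os2 and Zmiz1os1 had all mutants below all controls (4 transcripts, where 2.08% of all genes did so), and Slc7a6os and Zfp85os had all mutants above. Among partners the groups were apart for 1 of 45, Brd3.

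Zmiz1os1 (chr14:25257523-25461128, minus strand, antisense) had the largest difference. It starts 1943 bp from the start of Zmiz1, a transcriptional coactivator of the PIAS-like family. Its normalised counts were 20.7, 11.0, 22.4 and 14.7 across controls, with 9.76, 4.57 and 9.95 across mutants, which is a control mean of 17.2 ± 5.28 (SD, n = 4) and a mutant mean of 8.09 ± 3.06 (SD, n = 3). The log2 difference was -1.02 (SE 0.38), with a 95% interval of -1.90 to -0.13 and a limma adjusted p of 0.967. Zmiz1 was at 5354, 6148, 5196 and 6169 across controls, with 5451, 5397 and 5902 across mutants, with overlapping groups and a difference of -0.03 (SE 0.08). Without mutant 2, the lowest embryo, the difference of Zmiz1os1 was -0.70, and without control 1 or control 3 it was -0.92 or -0.88; in these fits its unadjusted p no longer lay under 0.05. Among females (E8.5e), a split chosen after seeing the data, it was -1.53.

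Prkag2os2 and Chn1os3 were also lower in each mutant. Prkag2os2 (chr5:24873544-24875934, plus strand, antisense), within Prkag2, a regulatory subunit of the energy sensor AMPK, had counts of 10.4, 8.25, 17.9 and 18.0 across controls, with 7.81, 7.61 and 5.43 across mutants and a log2 difference of -0.82 (SE 0.37). Chn1os3 (chr2:73596526-73616012, plus strand, antisense), overlapping exons of the Rac regulator gene Chn1, had 12.96, 9.17, 11.2 and 13.1 across controls, with 7.81, 5.33 and 9.05 across mutants and a difference of -0.60 (SE 0.32). Both partners lay near 0, at 0.03 (SE 0.18) for Prkag2 and 0.04 (SE 0.09) for Chn1. Neither os transcript passed the test, with limma adjusted p-values of 0.967 and 0.967.

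Prox2os (chr12:85086374-85088228, plus strand, antisense) overlaps exons of Prox2, a prospero homeobox gene, and had counts of 11.2, 10.1, 15.7 and 14.7 across controls, with 10.7, 4.57 and 9.05 across mutants. Mutant 2 was lowest, and mutant 1 lay within the control range. Fbxl12os (chr9:20607458-20617271, plus strand, antisense), tail to tail with the F-box gene Fbxl12, had 15.5, 14.7, 20.1 and 9.82 across controls, with 9.76, 6.85 and 13.6 across mutants. Their log2 differences were -0.66 (SE 0.36) and -0.54 (SE 0.35), with partners at -0.15 (SE 0.26) and -0.17 (SE 0.12). With 1 embryo left out they ran from -0.88 (without mutant 1) to -0.34 (without mutant 2) for Prox2os and from -0.76 (without mutant 3) to -0.32 (without mutant 2) for Fbxl12os. Neither pair was apart between groups.

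In the other direction stood Foxd2os, Zfp85os, Rbm3os, Map2k3os and Hectd2os. Zfp85os (chr13:67729262-67756838, plus strand, processed transcript), overlapping the zinc-finger gene Zfp85, had counts of 6.91, 11.0, 12.3 and 4.91 across controls, with 14.6, 16.7 and 12.7 across mutants. Mutant 3 lay just above control 3, the highest control. The log2 difference was 0.75 (SE 0.37), with Zfp85 at -0.05 (SE 0.19). Rbm3os (chrX:8145429-8147964, plus strand, antisense), overlapping exons of the cold-inducible RNA-binding protein gene Rbm3, had 12.96, 7.33, 7.83 and 4.91 across controls, with 8.79, 14.5 and 14.5 across mutants, with control 1 within the mutant range. Map2k3os (chr11:60920917-60931867, minus strand, antisense), divergent from the p38 pathway kinase gene Map2k3 across the window printed above, had 12.1, 8.25, 16.8 and 21.3 across controls, with 23.4, 17.5 and 18.1 across mutants. The groups overlapped in both, and the log2 differences were 0.59 (SE 0.39) and 0.47 (SE 0.35) beside 0.04 (SE 0.07) for Rbm3 and -0.05 (SE 0.10) for Map2k3. When 1 embryo was left out, the Map2k3os difference ran from 0.25 (without control 2) to 0.67 (without control 4).

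Foxd2os (chr4:114909257-114921967, plus strand, processed transcript) had the largest positive difference and followed its partner from embryo to embryo. Foxd2 is a forkhead factor of paraxial and facial mesenchyme, and the os transcript starts 384 bp away. Foxd2os had normalised counts of 40.6, 52.3, 174 and 39.3 across controls, with 84.9, 133 and 164 across mutants, and Foxd2 32.8, 80.7, 246 and 47.4 across controls, with 94.7, 149.9 and 217 across mutants. Both were highest in control 3 and mutant 3 and low in the other controls, and the groups overlapped through control 3. The log2 difference was 0.98 (SE 0.51) for Foxd2os, 0.95 (SE 0.63) for Foxd2 and 0.03 (SE 0.22) for the ratio. The summed paraxial mesoderm markers were 1007, 1870, 4297 and 1754 across controls, with 2224, 3040 and 4749 across mutants, and their part in the difference was not tested. Without control 3 the Foxd2os difference was 1.47, with no os transcript called in that fit either.

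**Figure D4:**
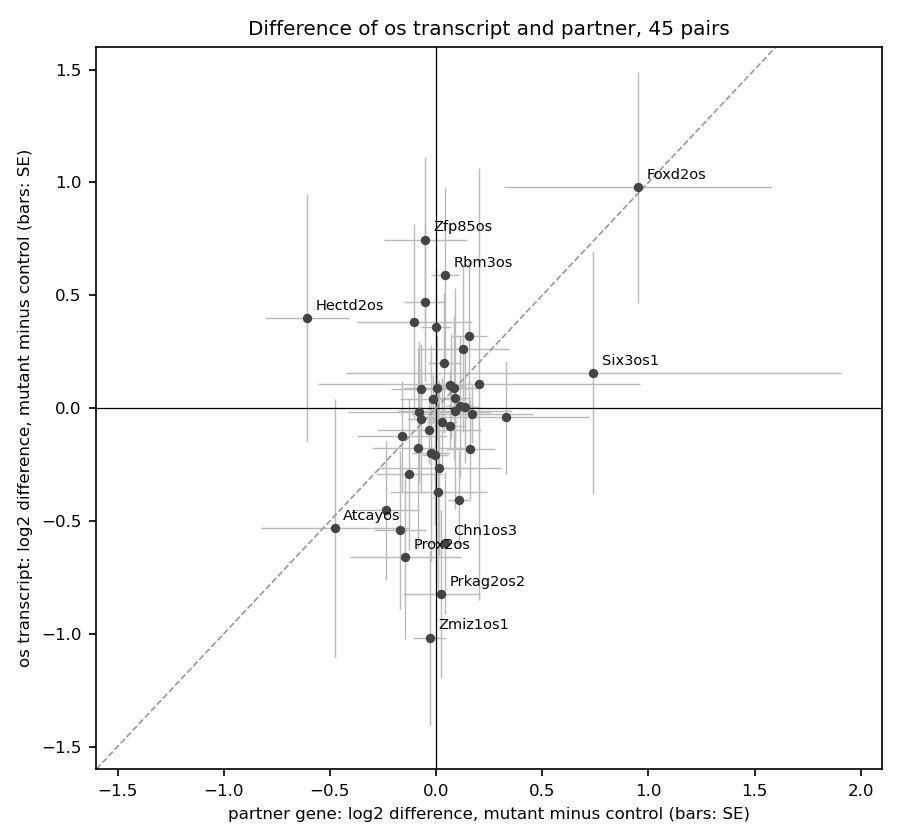
Log2 difference, mutant minus control, of each os transcript (vertical) against that of its partner (horizontal) for the 45 pairs, with SE bars. The dashed line marks equal differences; Foxd2os lies on it at 0.98 against 0.95, while Zmiz1os1 at -1.02 and Zfp85os at 0.75 lie beside partners near 0.

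Whether a transcript and its partner differed unequally was tested by the log2 ratio of the pair within each embryo, which is free of library scaling. The fit covered 2876 opposite-strand neighbour pairs, of which 45 are os pairs. With limma, 0 of the 45 ratios were called, with 0% called over all neighbour pairs and a smallest adjusted p of 0.998 among os pairs. At an unadjusted p under 0.05 there were 6 os pairs (13.3%), against 3.79% of the neighbour pairs. Groups did not overlap for 2, against 4%. With a normalised count of at least 10 required in every library, 1 of 24 os pairs had such a p (4.17%), against 3.53%. The 6 os pairs became 3 (6.67%) without control 1 or without control 3, where 3.72% and 8.52% of all neighbour pairs passed. Without control 4 there were 4 (8.89%), against 2.96%. Without mutant 1, 2 or 3 there were also 4, against 4.07%, 2.64% and 4.35%. With embryo number range as a covariate there were 3 (6.67%), against 4.10%. The count stayed at 6 without control 2, with sex as a covariate, with total-count or TMM scaling and with a pseudocount of 5. In these runs 3.76% to 4.10% of all neighbour pairs passed. A pseudocount of 0.5 gave 5 (11.1%), against 3.82%. The ratio was higher in mutants in 19 pairs and lower in 26, with a median difference of -0.09. Over the other neighbour pairs, taken as the scarcer gene over the other, the median was -0.04.

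The 6 pairs were those of Zfp85os, Prkag2os2, Chn1os3, Hectd2os, Zmiz1os1 and Brd3os. These os transcripts had mean normalised counts of 11.3, 10.8, 9.80, 8.20, 13.3 and 24.9 in that order. For Zfp85os the ratio differed by 0.80 (SE 0.24), with a limma adjusted p of 0.998. The ratios of Zmiz1os1, Prkag2os2 and Chn1os3 differed by -0.99 (SE 0.39), -0.85 (SE 0.32) and -0.64 (SE 0.25). Hectd2os (chr19:36614052-36705641, minus strand, antisense) and Hectd2, a ubiquitin ligase gene, differed in opposite directions, neither past the test. Hectd2os had 3.46, 11.0, 3.36 and 11.5 across controls, with 14.6, 5.33 and 8.14 across mutants, and Hectd2 134, 143, 104 and 177 across controls, with 89.8, 76.1 and 105 across mutants. The groups overlapped for both, with differences of 0.40 (SE 0.55) and -0.61 (SE 0.20) and a ratio difference of 1.01 (SE 0.40). With 1 embryo left out the Hectd2os difference ran from 0.05 (without mutant 1) to 0.70 (without mutant 2), and that of the ratio from 0.66 (without mutant 1) to 1.22 (without control 2). Brd3os, a protein-coding gene tail to tail with the bromodomain gene Brd3 and named after its values were seen, had 29.4, 23.8, 32.4 and 26.2 across controls, with 22.5, 19.0 and 20.8 across mutants. Brd3 had 3289, 3546, 3389.8 and 3579 across controls, with 3789, 3598 and 3766 across mutants. The os gene was lower and Brd3 higher in every mutant, and the ratio differed by -0.51 (SE 0.22), with a limma adjusted p of 0.998.

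In direction, 28 of the 45 os transcripts differed the same way as their partner (62.2%), as did 53.5% of the 2831 other neighbour pairs. The ratio varied less over the 7 embryos than the os transcript itself in 21 of the 45 (46.7%), and less than the scarcer gene in 34.5% of the other pairs. Foxd2os and Gata5os are examples of the former. These shares were not tested.

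Os transcripts of developmental regulators were looked at by lists of their partners. Among heart and lateral mesoderm regulators, 2 of 5 os transcripts passed the filter, Gata5os and Tbx3os2. Among head, neural and sense organ regulators 3 of 12 passed, Irx3os, Lhx1os and Six3os1. Among Hox and ParaHox genes 1 of 5 passed, Hoxb3os, and the only imprinted pair was that of Igf2. None was called. Each of these 7 differences was smaller than its SE, and 6 were negative, all but that of Six3os1. When 1 embryo was left out, the difference of Six3os1 ran from -0.26 (without mutant 1) to 0.63 (without mutant 3), that of Lhx1os from -0.53 (without mutant 3) to -0.02 (without mutant 1) and that of Tbx3os2 from -0.56 (without mutant 1) to -0.06 (without mutant 2). Over all alternative runs the ranges were -0.93 to 0.63 for Six3os1, -0.53 to 0.16 for Lhx1os and -0.70 to -0.06 for Tbx3os2.

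Gata5os (chr2:180332857-180340732, plus strand, antisense) overlaps exons of Gata5, a zinc-finger factor of the heart and endoderm. Its counts were 56.2, 48.6, 22.4 and 47.4 across controls, with 37.1, 40.3 and 45.2 across mutants, and those of Gata5 1992, 2176, 815 and 2294 across controls, with 1785, 1546 and 1472 across mutants. Control 3 was lowest for both genes, and it also had the lowest cardiomyocyte marker sum. The difference was -0.02 (SE 0.32) for Gata5os and -0.08 (SE 0.33) for Gata5, and without control 3 that of Gata5os was -0.31. Per kilobase Gata5os was at 5.23% of Gata5. Tbx3os2 (chr5:119685095-119691218, minus strand, lincRNA), tail to tail with Tbx3, a T-box repressor of the conduction system, had 12.96, 10.1, 7.83 and 6.54 across controls, with 11.7, 5.33 and 6.33 across mutants. Its values lay near the filter, and its groups overlapped.

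Irx3os (chr8:91800415-91807539, plus strand, antisense), overlapping exons of the Iroquois homeobox gene Irx3, had 54.4, 53.2, 86.1 and 55.6 across controls, with 50.8, 47.9 and 63.3 across mutants. Control 3 stood above the rest, and without it the log2 difference moved from -0.18 (SE 0.22) to -0.02. The neural tube marker sum, which includes Irx3, was also highest in control 3, and its part was not tested. Lhx1os (chr11:84525660-84535831, plus strand, lincRNA), divergent from the LIM homeobox gene Lhx1 across the window printed above, had 20.7, 18.3, 14.5 and 27.8 across controls, with 10.7, 16.7 and 22.6 across mutants. Lhx1 had 175, 169, 159.9 and 170.1 across controls, with 118, 169 and 183 across mutants, and mutant 1 was lowest for both genes. Six3os1 (chr17:85600651-85618398, minus strand, processed transcript), overlapping exons of the forebrain factor gene Six3, had 38.9, 12.8, 30.2 and 13.1 across controls, with 43.0, 25.9 and 11.8 across mutants. Six3 had 15.5, 0.917, 47.0 and 3.27 across controls, with 42.0, 16.0 and 3.62 across mutants. Six3 ran from near 0 to its top value within the controls alone, and the groups overlapped for both genes.

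Hoxb3os (chr11:96343072-96354691, minus strand, antisense) overlaps exons of Hoxb3 in the Hoxb cluster, and the base where it starts lies 11061 bp from the nearest base of Hoxb1, the locus that carries Cre in the mutants. Its counts were 73.4, 71.5, 88.4 and 73.6 across controls, with 63.5, 78.4 and 73.3 across mutants, and those of Hoxb3 76.0, 133, 95.1 and 88.3 across controls, with 73.2, 88.3 and 128 across mutants. Mutant 1 was lowest for both, and the groups overlapped. The log2 difference was -0.10 (SE 0.15) for Hoxb3os and -0.03 (SE 0.25) for Hoxb3. Exon bases that no other annotated gene covers numbered 998 of 4201 for Hoxb3os and 2001 of 4251 for Hoxb3. Foxl2os (chr9:98949781-98955299, minus strand, processed transcript) starts within 11 bp of Foxl2, a forkhead factor best known in the ovary. It had counts of 85.5, 58.7, 70.5 and 99.8 across controls, with 104, 66.2 and 60.6 across mutants, beside 40.6, 21.1, 39.1 and 54.0 across controls, with 78.1, 32.7 and 38.9 across mutants for Foxl2. Mutant 1 was highest for both and control 2 lowest, and Foxl2os was at 176% of Foxl2 per kilobase.

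The spread between embryos differed among the os transcripts. Of the 26 os transcripts with a mean of at least 20, 18 had less than 2-fold between the highest and the lowest embryo and 8 had 2-fold or more. Among the latter was Atcayos, overlapping exons of Atcay, with 81.2, 92.6, 25.7 and 144 across controls, with 86.9, 31.2 and 46.1 across mutants. Control 3 was lowest and control 4 highest, and the groups overlapped. Atcay had 12.96, 11.9, 11.2 and 19.6 across controls, with 11.7, 6.09 and 11.8 across mutants, with control 4 again highest.

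**Figure D5:**
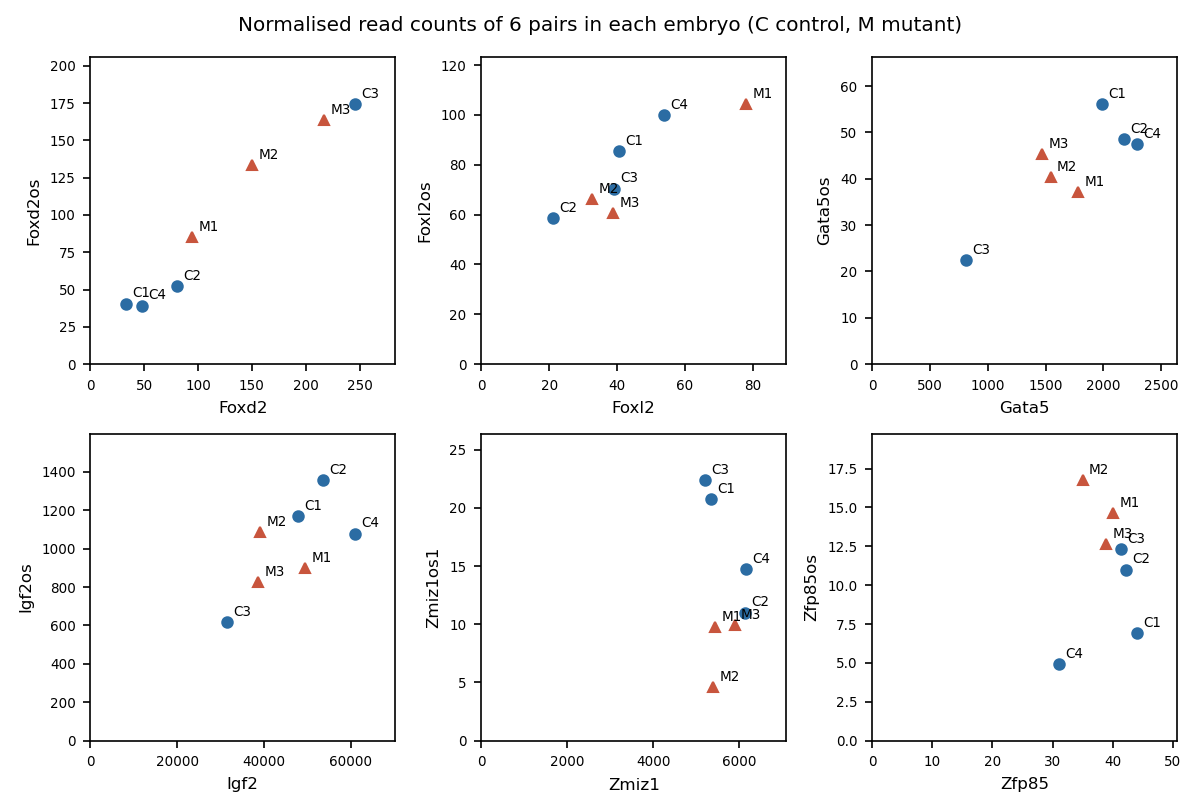
Normalised read count of os transcript (vertical) against partner (horizontal) in each embryo for 6 pairs; circles C1 to C4 are controls and triangles M1 to M3 mutants. Foxd2os and Foxl2os are high in the embryos where the partner is high, C3 is lowest for both Gata5os and Igf2os, and Zmiz1os1 and Zfp85os separate the groups while their partners do not.

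The authors' deposited table of selected genes lists 1 of the 296 os transcripts, Brd3os, with a ratio of mutant to control of 0.741 and a voom p-value of 0.0288. It lists 6 of the 251 partner genes. The authors' deposited ratios were 0.476 for Hoxb5, 0.648 for Hectd2, 0.662 for Dgke, 0.714 for Mxra8, 0.714 for Pip5k1b and 0.8285 for Mecom. These counts of listed genes are given without the share of all genes in that table. They do not show whether os transcripts or partners were listed more or less often than other genes, which was not tested. In the authors' deposited table of all genes, 4 of the 296 os transcripts had a p-value under 0.05 (1.35%), against 1.24% of all 48526 genes. Both shares include genes without a read in any embryo, which are 19.9% of os transcripts and 40.3% of all genes. They are therefore not shares of like sets. The smallest adjusted value of any os transcript was 1.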

How the data were processed

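The authors deposited a normalised signal value per gene and embryo. These values are read counts divided by 1 size factor per library: 100% of values were whole multiples of the library's step within 0.1, and whole reads were recovered from them. Per the file headers, the authors also deposited a ratio and p-values per gene. The submitters' processing notes name HISAT2, featureCounts, Subread, DESeq2, edgeR, limma and build GRCm38; the sources used here give no versions, roles, annotation or strand setting.

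Genes entered the test when 3 or more libraries reached a normalised count of 10. The test was limma 3.58.1 in R 4.3.3, with trended empirical Bayes, on log2(value + 1), a scale that understates changes of low genes, all 7 embryos in 1 fit without covariates. P-values were adjusted by Benjamini-Hochberg over all 15599 genes (threshold 0.05). A count test was planned for raw counts only; edgeR 4.0.16, DESeq2 1.42.0 and limma-voom on recovered reads were alternatives. Pair ratios were fitted over 2876 opposite-strand pairs whose bodies overlap or whose starts lie within 5 kb. Both fits were tested on simulated data. Precision is limited by the number of embryos and by counting error at low counts.

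Coordinates, exons and gene types come from GENCODE M21, and promoter windows from RefSeq. A start site was matched to a RefSeq window within 500 bp. Where a partner symbol had several identifiers, the one on the same chromosome with the most reads was used. Named os transcripts were those whose partner is in a list of regulators, the 10 highest, the 5 most positive and 5 most negative differences, and the 3 most positive and 3 most negative ratio differences, 24 in all; others named are said to be chosen after their values were seen. One passing pair is counted but not reported by name. Members and lists were chosen with earlier results of these data known.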

Additional observations from a re-analysis of the deposited data

Results flagged for a closer look

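Control 3 stood above the other controls for 4 os transcripts, and the gap to the nearest control took up most of the range of the group. Its normalised count was 147.6 for Epb41l4aos, where the other controls had 112 to 117. For Foxd2os it was 174 against 39.3 to 52.3, for Hoxb3os 88.4 against 71.5 to 73.6, and for Irx3os 86.1 against 53.2 to 55.6. Chance sets apart about 1 in 20 groups, and 4 of 48 control groups tested were set apart here. All 4 were set apart by the same embryo. The groups are thus not independent, and this rate cannot say whether chance accounts for them. In the same embryo the neural tube markers summed to 6006 and the paraxial mesoderm markers to 4297, the highest among controls, and the cardiomyocyte markers to 46676, the lowest of all embryos. Their part in these values was not tested. Without control 3 the log2 differences were 0.08 for Epb41l4aos, 1.47 for Foxd2os, -0.03 for Hoxb3os and -0.02 for Irx3os.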

How the results depend on the processing

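The number of all genes called, 2, was 0 with a normalised count of at least 10 required in every library, 1 with edgeR, 8 with DESeq2, 0 with limma-voom, 1 with sex as a covariate, 1 with embryo number range as a covariate, 0 in the female E8.5e embryos alone (chosen after seeing the data) and 1 to 9 when 1 embryo was left out, 9 without control 3. The cause was not tested. The count of os transcripts called, of partners called and of ratios called was 0 in each of these runs that was made for it, and with total-count or TMM scaling and a pseudocount of 5 or 0.5. The median log2 difference of os transcripts ran from -0.08 (no filter, 237 transcripts) to -0.01 (without control 3). Ratios were not run without a filter or with edgeR, DESeq2 or limma-voom. Of the 24 named os transcripts, 15 kept the sign of their difference in all alternatives and 9 changed it in at least 1, among them Gata5os and Six3os1. Os transcripts at an unadjusted p under 0.05 numbered 4 of 47 without control 3 (8.51%, against 13.3% of all genes in that fit) and 0 without control 1 or mutant 2 (2.55% and 2.63% of all genes). For the 21 os transcripts with means under 20, counting error and spread between embryos were not separated. No paired analysis was possible because the labels give no replicate numbers that groups share.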

Other observations

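Some os transcripts below the filter had most of their reads in the embryos where their partner was high. They were picked after their values were seen and carry no test. Hoxa11os, beside the posterior homeobox gene Hoxa11, had recovered reads of 0, 4, 0 and 12 across controls, with 0, 3 and 1 across mutants, and Hoxa11 had normalised counts of 1.73, 11.9, 2.24 and 76.9 across controls, with 0.976, 6.09 and 0 across mutants. Control 4 was highest for both. Wt1os, which starts 19 bp from the epicardial and kidney factor gene Wt1, had reads of 1, 3, 0 and 7 across controls, with 0, 1 and 0 across mutants, and Wt1 had 47.5, 81.6, 19.0 and 231 across controls, with 49.8, 40.3 and 29.9 across mutants, again highest in control 4. Zeb2os, beside the zinc-finger repressor gene Zeb2, had reads of 2, 0, 13 and 2 across controls, with 0, 4 and 7 across mutants. Zeb2 had 634, 670.2, 1525 and 651 across controls, with 554, 990.2 and 1056 across mutants, and control 3 was highest for both. Nr6a1os, inside the nuclear receptor gene Nr6a1, had reads of 1, 2, 23 and 1 across controls, with 2, 0 and 4 across mutants, most of them in control 3, where Nr6a1 was also highest.

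Further pairs had few os reads, also picked after their values were seen. Pax6os1 had reads of 1, 0, 1 and 0 across controls, with 0, 0 and 1 across mutants, while Pax6, the eye and neural tube factor, ran from 65.7 in control 1 to 1060.1 in mutant 3. Hoxd3os1 had reads of 0, 0, 1 and 0 across controls, with 0, 1 and 2 across mutants, while Hoxd3 had 5.18, 3.67, 101 and 3.27 across controls, with 1.95, 84.5 and 149 across mutants. The Hoxd3os1 reads lay in the embryos where Hoxd3 was high. Evx1os, beside the homeobox gene Evx1, was read in every embryo, at 10, 5, 3 and 2 across controls, with 12, 8 and 4 across mutants, and Evx1 had 21.6, 18.3, 6.71 and 6.54 across controls, with 27.3, 24.4 and 14.5 across mutants, with mutant 1 highest and control 4 lowest for both. Counts this low set wide limits on each value.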
